A study of Mus musculus with 6 samples.

Results

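The genes described here encode the subunits of potassium, sodium and calcium channels. They were picked by symbol: every gene whose name begins with Kcn, with Scn, a number and a or b, or with Cacna, Cacnb or Cacng, leaving out Kcnd3os and Kcnq1ot1, which carry noncoding suffixes. This gave 135 of the 24063 gene symbols in the files, namely 95 potassium, 14 sodium and 26 calcium channel genes. The symbols reach further than the name voltage-gated: the Kcnj and Kcnk genes encode channels without a classical voltage sensor, the Kcnab, Kcne, Kcnip, Kcnmb, Cacna2d, Cacnb and Cacng genes, and the sodium channel genes ending in b, encode partner proteins, and Kcnmb4os1 is a noncoding transcript on the strand opposite Kcnmb4.

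RNA-seq was done on stem-like medulloblastoma cells from mouse cerebellum, in 3 groups of 2 libraries. The sgMiat-6 and sgMiat-96 cells carried CRISPR guides named for Miat, a long noncoding RNA, and are labelled as Miat knockdown. The sgGal4-4 cells carried a guide named for the yeast protein Gal4 and is labelled WT, although it shares the tumour genotype, Math1-Cre; SmoM2, with the other cells. In that genotype the Math1 (Atoh1) promoter drives Cre mainly in granule neuron progenitors, and SmoM2 is an active form of Smoothened, the Hedgehog signal transducer. The labels do not say whether a guide group is 1 clone, nor whether its 2 libraries came from separate cultures, so p-values measure the spread between these libraries only, which may be technical.

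Voltage-gated channels open when the membrane depolarises. Sodium channels carry the upstroke of the action potential, calcium channels couple depolarisation to calcium entry, and potassium channels repolarise the cell or hold it at rest. In the cerebellum, granule cells and their progenitors switch channel sets as they mature, and tumour cells that do not fire action potentials still use potassium channels to set membrane voltage, volume and calcium entry.

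Miat itself was at 0 counts in all 4 Miat libraries, against 7.21 and 7.04 CPM (counts scaled to the library total, corrected by TMM) in the sgGal4-4 libraries. The rows used summed to between 18438909 and 19650274 counts per library, and 3 counts correspond to between 0.149 and 0.173 CPM. Atoh1, the defining marker of the granule neuron progenitor, was at 0 in all 6 libraries, as were Syt1 of neurons and Gja1 of astrocytes. The summed level of 8 astrocyte markers was between 745 and 838 CPM in sgMiat-6, between 660.0 and 677 CPM in sgMiat-96 and between 2840 and 2930 CPM in sgGal4-4 libraries, and 6 of the 7 tested fell. The 8 oligodendrocyte lineage markers, mostly Olig1 and Olig2 with Sox10 at most at 0.152 CPM, summed to between 3110 and 3260 CPM in sgMiat-6, between 4750 and 4850 CPM in sgMiat-96 and between 2030 and 2100 CPM in sgGal4-4, with 3 of 5 tested higher. The 9 granule progenitor markers summed to between 218 and 243 CPM in sgMiat-6, between 220.0 and 235 CPM in sgMiat-96 and between 161 and 175 CPM in sgGal4-4 libraries. Of the 7 tested, 4 rose, Zic1 and Zic2 among them, and 2 fell, namely Mycn (log2 fold change -2.40 ± 0.20) and Gli2 (-2.21 ± 0.15). Neuron markers, nearly all Map2, summed to between 380.0 and 515 CPM in sgMiat-6, between 308 and 313 CPM in sgMiat-96 and 763 CPM in both sgGal4-4 libraries. Of the 4 neuron markers tested, Map2 alone fell and 2 rose. Tubb3 averaged 6.20 CPM in sgMiat-6 and 8.13 CPM in sgMiat-96 against 0.179 CPM in sgGal4-4. Nefm averaged 1.33 CPM in sgMiat-6 and 0.255 CPM in sgMiat-96 against 0.0253 CPM, a single count, in sgGal4-4. Markers of microglia, endothelium, fibroblasts and muscle summed to at most 10.3 CPM in any library, and the microglial sum to at most 1.08 CPM. These markers moved with the guides alongside the channel genes, and their part in the channel results was not tested. In RNA from whole samples, fewer cells of a type and less RNA per cell cannot be told apart.

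Few channel genes were abundant. Of the 135, 60 passed the filter on low counts and were tested, 40 for potassium, 4 for sodium and 16 for calcium channels. Another 24 had 0 counts in every library, and no untested gene exceeded 0.75 CPM in any library. Divided by transcript length, the level of Cacng7 led the channel genes of sgGal4-4 cells at 96.3 CPM per kb, followed by Kcnip3 at 50.6 and Kcnc1 at 33.3 CPM per kb. In sgMiat-96 cells Kcnmb4 came first at 109 CPM per kb, against 15.9 CPM per kb in sgGal4-4 cells. The summed length-scaled level of the calcium channel genes was 131 and 127 CPM per kb in sgMiat-6, 138 and 154 in sgMiat-96, and 206 and 209 CPM per kb in sgGal4-4 libraries, without overlap between Miat and sgGal4-4 cells. For the potassium channel genes, leaving out the noncoding Kcnmb4os1, it was 269 and 278 CPM per kb in sgMiat-6, 272 and 284 in sgMiat-96, and 193 and 180.0 CPM per kb in sgGal4-4 libraries. In sgMiat-96, Kcnmb4 supplied 42.7% and 36.2% of that sum. Of the calcium sum, Cacng7 supplied between 42.4% and 55.1% in each library. The product of Cacng7 is a partner of AMPA-type glutamate receptors more than of calcium channels.

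**Figure D1:**
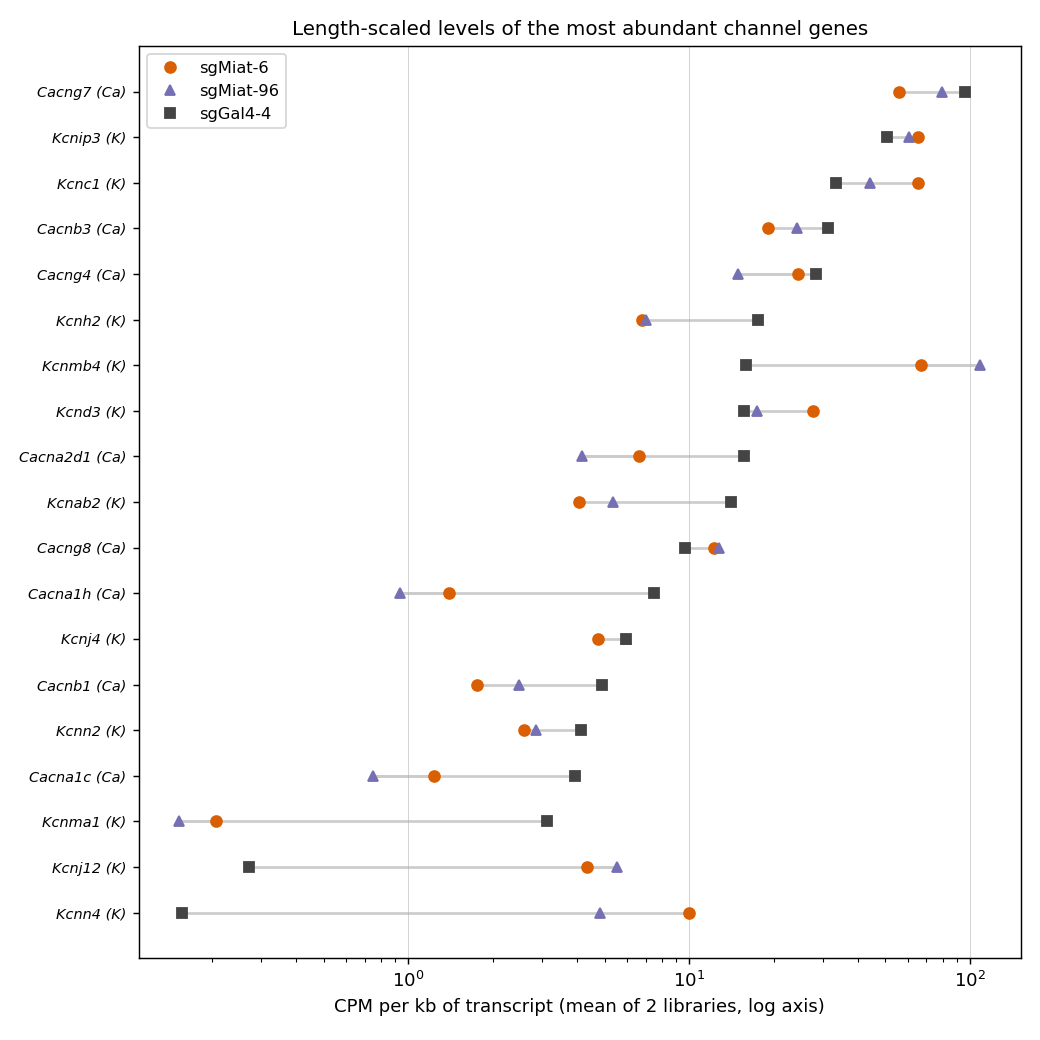
Length-scaled levels (CPM per kb of transcript, mean of 2 libraries, log axis) of 19 channel genes that reached 3 CPM per kb in at least 1 group, ordered by their level in sgGal4-4, with 1 symbol per group. Kcnmb4, Kcnj12 and Kcnn4 lie far to the right in both Miat groups, while Cacna1h, Cacna1c, Kcnma1 and Cacna2d1 lie to the left; for Kcnj4 the sgMiat-96 and sgGal4-4 symbols coincide.

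With both Miat guides set against sgGal4-4, channel genes moved in both directions, with more falling than rising. Of the 60 tested, 17 rose and 33 fell at an adjusted p under 0.05 (edgeR's quasi-likelihood test), and 10 did not pass. In the same comparison 66.5% of all 13219 tested genes were called, 33.1% higher and 33.4% lower, so most genes of these cells moved and a call by itself does not set a channel gene apart. Potassium channel genes split into 14 higher and 18 lower of 40, with a median log2 fold change of -0.58. Calcium channel genes split into 2 higher and 13 lower of 16, with a median of -1.17. Sodium channel genes gave 1 higher and 2 lower of 4. The median over all tested genes was 0.00. The tested channel genes at 0 in all Miat or all sgGal4-4 libraries are potassium channel genes. Even at their bound they stay on the same side of the potassium median, so their fitted values cannot move it. Several genes passed the filter only through the group in which they were high, so these counts describe the tested genes and not all 135. With a filter of 2 CPM in at least 2 libraries, under which fewer genes were tested, 11 rose. Without either sgGal4-4 library, 1 calcium channel gene rose.

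**Figure D2:**
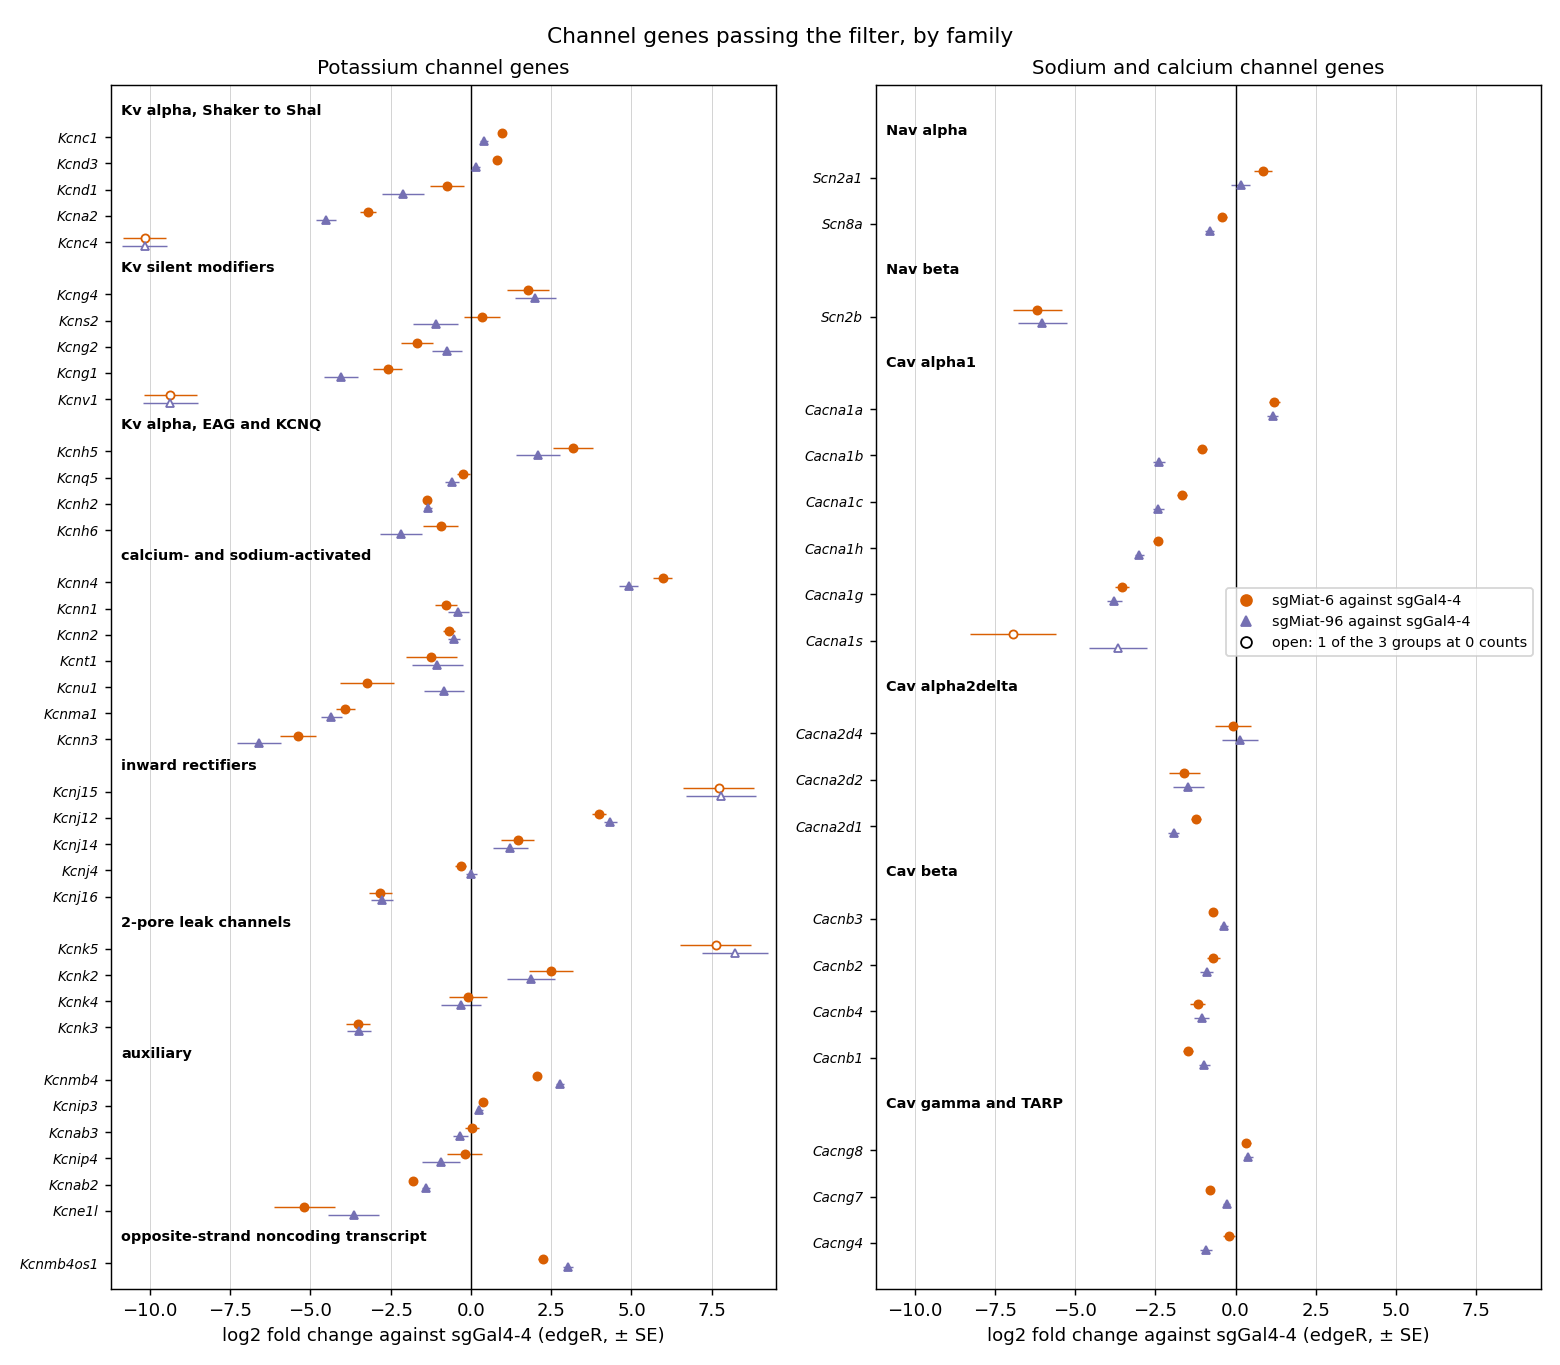
Log2 fold change (edgeR, ± SE) of 56 tested channel genes in sgMiat-6 (circles) and in sgMiat-96 (triangles) against sgGal4-4, grouped by family; open symbols mark genes with 1 of the 3 groups at 0 counts, where the fitted value depends on the prior count and is not a bound. The calcium channel genes lie mostly left of 0, between -5.29 and -0.53 over both guides for those that fell, whereas potassium families spread to both sides.

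Among the Shaker-to-Shal pore subunits of potassium channels, 3 of 7 tested rose and 4 fell. Kcnc4 and Kcna2, which lie near each other on chromosome 3, fell most. Kcnc4 encodes a pore subunit of the Kcnc family (chr3:107438298-107460287, GRCm38). It was at 0 counts in all 4 Miat libraries, against 7.93 and 7.25 CPM in the sgGal4-4 libraries. Over both guides this is at least 189-fold lower, taking 3 counts over the Miat libraries as the limit of detection (edgeR adjusted p = 3.05e-08). Kcna2, a low-threshold channel of axons and terminals (chr3:107090883-107115005), had 2.38 and 2.30 CPM in sgMiat-6, 1.41 and 0.462 CPM in sgMiat-96, and 23.0 and 20.5 CPM in sgGal4-4 libraries. All 4 Miat libraries lay far under both sgGal4-4 libraries, with a log2 fold change of -3.87 ± 0.22 (SE; edgeR adjusted p = 1.01e-08).

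Kcnc1 moved the opposite way. This gene for a delayed rectifier, which lets neurons fire fast and is found in cerebellar granule cells (chr7:46396219-46438706), was the most abundant pore subunit per length in all 3 groups. It had 504 and 512 CPM in sgMiat-6, 294 and 392 CPM in sgMiat-96, and 272 and 246 CPM in sgGal4-4 libraries. The lowest Miat library stood just above the higher sgGal4-4 library, and the log2 fold change was 0.69 ± 0.11 (edgeR adjusted p = 0.000157). Kcnd3, a rapidly inactivating channel, had 208 and 188 CPM in sgMiat-6, 113 and 136 CPM in sgMiat-96 and 116 and 109 CPM in sgGal4-4 libraries, so that its groups overlap for sgMiat-96. Kcnd1, one of the 4 that fell, was under 1 CPM in every library, and its call was lost with DESeq2 (-1.46) and without either sgGal4-4 library (-1.22 without replicate 1 and -1.63 without replicate 2), sgMiat-6 replicate 1 (-1.28) or sgMiat-96 replicate 2 (-1.24).

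Silent modifier subunits form no channel alone and join Kcnb pores. Of 5 tested, 1 rose and 3 fell. Kcnv1 was at 0 counts in all 4 Miat libraries, against 3.76 and 4.91 CPM in sgGal4-4 libraries, at least 108-fold lower (edgeR adjusted p = 3.03e-07). Kcng1 fell to 0.744, 0.510, 0.169 and 0.289 CPM in the Miat libraries, against 5.15 and 2.53 CPM in sgGal4-4, a log2 fold change of -3.32 ± 0.39. Kcng4, which rose, stayed under 1 CPM everywhere, and its call was lost with DESeq2 (1.93) and without sgGal4-4 replicate 1 (2.12) or 2 (1.69). The Kcng2 call was lost with DESeq2 (-1.22), without sgGal4-4 replicate 2 (-0.73) and without sgMiat-6 replicate 1 (-1.04).

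Of the EAG and KCNQ families, 1 of 5 tested rose and 3 fell. Kcnh2, the ERG channel that repolarises the heart, was the most abundant of them. Its level was 26.5 and 31.1 CPM in sgMiat-6, 27.4 and 31.9 CPM in sgMiat-96, and 74.3 and 74.6 CPM in sgGal4-4 libraries. Both guides gave nearly the same values, and the log2 fold change was -1.35 ± 0.11 (edgeR adjusted p = 2.15e-07). Kcnh5, of the EAG family, rose at low levels, with 2.63, 1.17, 0.618 and 1.15 CPM in the Miat libraries and 0.155 and 0.253 CPM in sgGal4-4 (log2 fold change 2.63 ± 0.59). Kcnh6, counted among those that fell, lost its call with DESeq2 (-1.58) and without sgGal4-4 replicate 1 (-1.46) or 2 (-1.64).

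Genes of the Kcnma, Kcnn, Kcnt and Kcnu families did not move together. Of these pore subunits, 1 of 7 tested rose and 4 fell. Kcnma1 encodes the large-conductance BK pore, which opens with calcium and voltage together (chr14:23292288-24005110). It had 1.39 and 1.17 CPM in sgMiat-6, 0.450 and 1.44 CPM in sgMiat-96, and 21.0 and 17.8 CPM in sgGal4-4 libraries (log2 fold change -4.13 ± 0.24, edgeR adjusted p = 1.3e-08). No Miat library came near either sgGal4-4 library. Kcnn3, a small-conductance channel, had 0.0496 and 0.102 CPM in sgMiat-6, 0 and 0.0577 CPM in sgMiat-96, and 3.86 and 2.99 CPM in sgGal4-4 libraries. Its low values rest on 3 counts in the sgMiat-6 and 1 count in the sgMiat-96 libraries, against 134 in sgGal4-4, which gives a count ratio of 45.4 (95% interval 15.2 to 223) for sgMiat-6. Kcnn2 fell by 0.61 ± 0.16, a call lost without sgGal4-4 replicate 1 (-0.59), and Kcnn1 did not pass. The Kcnu1 call, also lower, was lost with DESeq2 (-2.10) and without sgGal4-4 replicate 2 (-1.73).

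Kcnn4, the intermediate-conductance channel known from red cells, lymphocytes and proliferating cells (chr7:24369826-24385212), was the one that rose. It had 18.7 and 20.4 CPM in sgMiat-6, 8.54 and 10.2 CPM in sgMiat-96, and 0.206 and 0.405 CPM in sgGal4-4 libraries. The log2 fold change over both guides was 5.44 ± 0.28 (edgeR adjusted p = 3.74e-09). All Miat libraries were far above both sgGal4-4 libraries, and the 2 Miat groups did not overlap each other.

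Inward rectifiers, which pass current best near the resting voltage, gave 3 higher and 1 lower of 5 tested. Kcnj12, a strong rectifier that holds cells at a negative voltage (chr11:61022564-61073269), had 20.2 and 18.2 CPM in sgMiat-6, 22.5 and 26.4 CPM in sgMiat-96, and 1.24 and 1.17 CPM in sgGal4-4 libraries. The log2 fold change was 4.17 ± 0.19 (edgeR adjusted p = 1.48e-09), with no overlap between Miat and sgGal4-4 cells. Kcnj15 was at 0 counts in both sgGal4-4 libraries and had 1.79, 0.970, 1.52 and 1.39 CPM in the Miat libraries, at least 18.5-fold higher. Kcnj16, whose product pairs with other rectifier subunits in glia and kidney, fell by 2.80 ± 0.28 on the log2 scale, to 0.545, 0.664, 0.506 and 0.750 CPM in the Miat libraries against 4.38 and 4.26 CPM in sgGal4-4. Kcnj4, the rectifier gene with the highest level in sgGal4-4 cells, had 9.12 and 11.3 CPM in sgMiat-6, 12.2 and 13.5 CPM in sgMiat-96 and 12.7 and 12.9 CPM in sgGal4-4, and did not pass. Kcnj14, counted among those that rose, lost its call with DESeq2 (1.35) and without sgGal4-4 replicate 2 (0.92), sgMiat-6 replicate 2 (1.16) or sgMiat-96 replicate 1 (1.31).

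The Kcnk genes, whose channels leak potassium at rest, moved in both directions. Kcnk3, an acid-sensitive member, had 0.694 and 0.357 CPM in sgMiat-6, 0.450 and 0.635 CPM in sgMiat-96, and 6.85 and 5.37 CPM in sgGal4-4 libraries (log2 fold change -3.50 ± 0.29, edgeR adjusted p = 3.24e-07). Kcnk5, known for its response to alkaline conditions in kidney, was at 0 counts in both sgGal4-4 libraries and had 1.24, 1.33, 2.47 and 1.44 CPM in the Miat libraries. That is at least 20.9-fold higher. Of the 4 tested Kcnk genes, 2 rose and 1 fell, but the other that rose, Kcnk2, lost its call without sgGal4-4 replicate 1 (1.95) or 2 (2.48).

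Of the 6 tested genes for auxiliary potassium channel subunits, 2 rose and 2 fell. Kcnmb4, the beta subunit that slows BK channels in neurons (chr10:116417861-116473859), rose while the BK pore gene Kcnma1 fell. It had 62.2 and 71.8 CPM in sgMiat-6, 117 and 103 CPM in sgMiat-96, and 16.1 and 16.0 CPM in sgGal4-4 libraries. The log2 fold change was 2.42 ± 0.12 (edgeR adjusted p = 2.91e-09). Its noncoding neighbour Kcnmb4os1 (chr10:116418121-116421235) followed it, with 37.4 and 44.9 CPM in sgMiat-6, 77.1 and 65.7 CPM in sgMiat-96, and 9.27 and 8.26 CPM in sgGal4-4 (log2 fold change 2.63 ± 0.14, edgeR adjusted p = 5.78e-09). The pair shares 355 exon bases on opposite strands, and whether the counting used strand is not given in the sources used here, so reads from that stretch cannot be assigned to either gene. Over all GENCODE exons Kcnmb4 has 3324 bases and Kcnmb4os1 824, and Kcnmb4 shares another 693 with the noncoding Kcnmb4os2. The counted transcripts are shorter, at 1005 and 753 bases, and whether they hold the shared bases was not checked.

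Kcnab2, a cytoplasmic beta subunit that joins Kcna pores, had 15.2 and 13.8 CPM in sgMiat-6, 19.2 and 19.0 CPM in sgMiat-96, and 52.7 and 47.9 CPM in sgGal4-4 libraries (log2 fold change -1.60 ± 0.11, edgeR adjusted p = 4.77e-08). It fell in the same direction as Kcna2. Kcnip3, a calcium sensor that binds Kcnd pores and is also known as the transcriptional repressor DREAM, differed little. Its level was 180.0 and 180.0 CPM in sgMiat-6, 160.0 and 176 CPM in sgMiat-96, and 145 and 134 CPM in sgGal4-4 libraries. The log2 fold change of 0.32 ± 0.09 (edgeR adjusted p = 0.00739) did not pass with scaling by total counts alone, nor without either sgGal4-4 library.

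**Figure D3:**
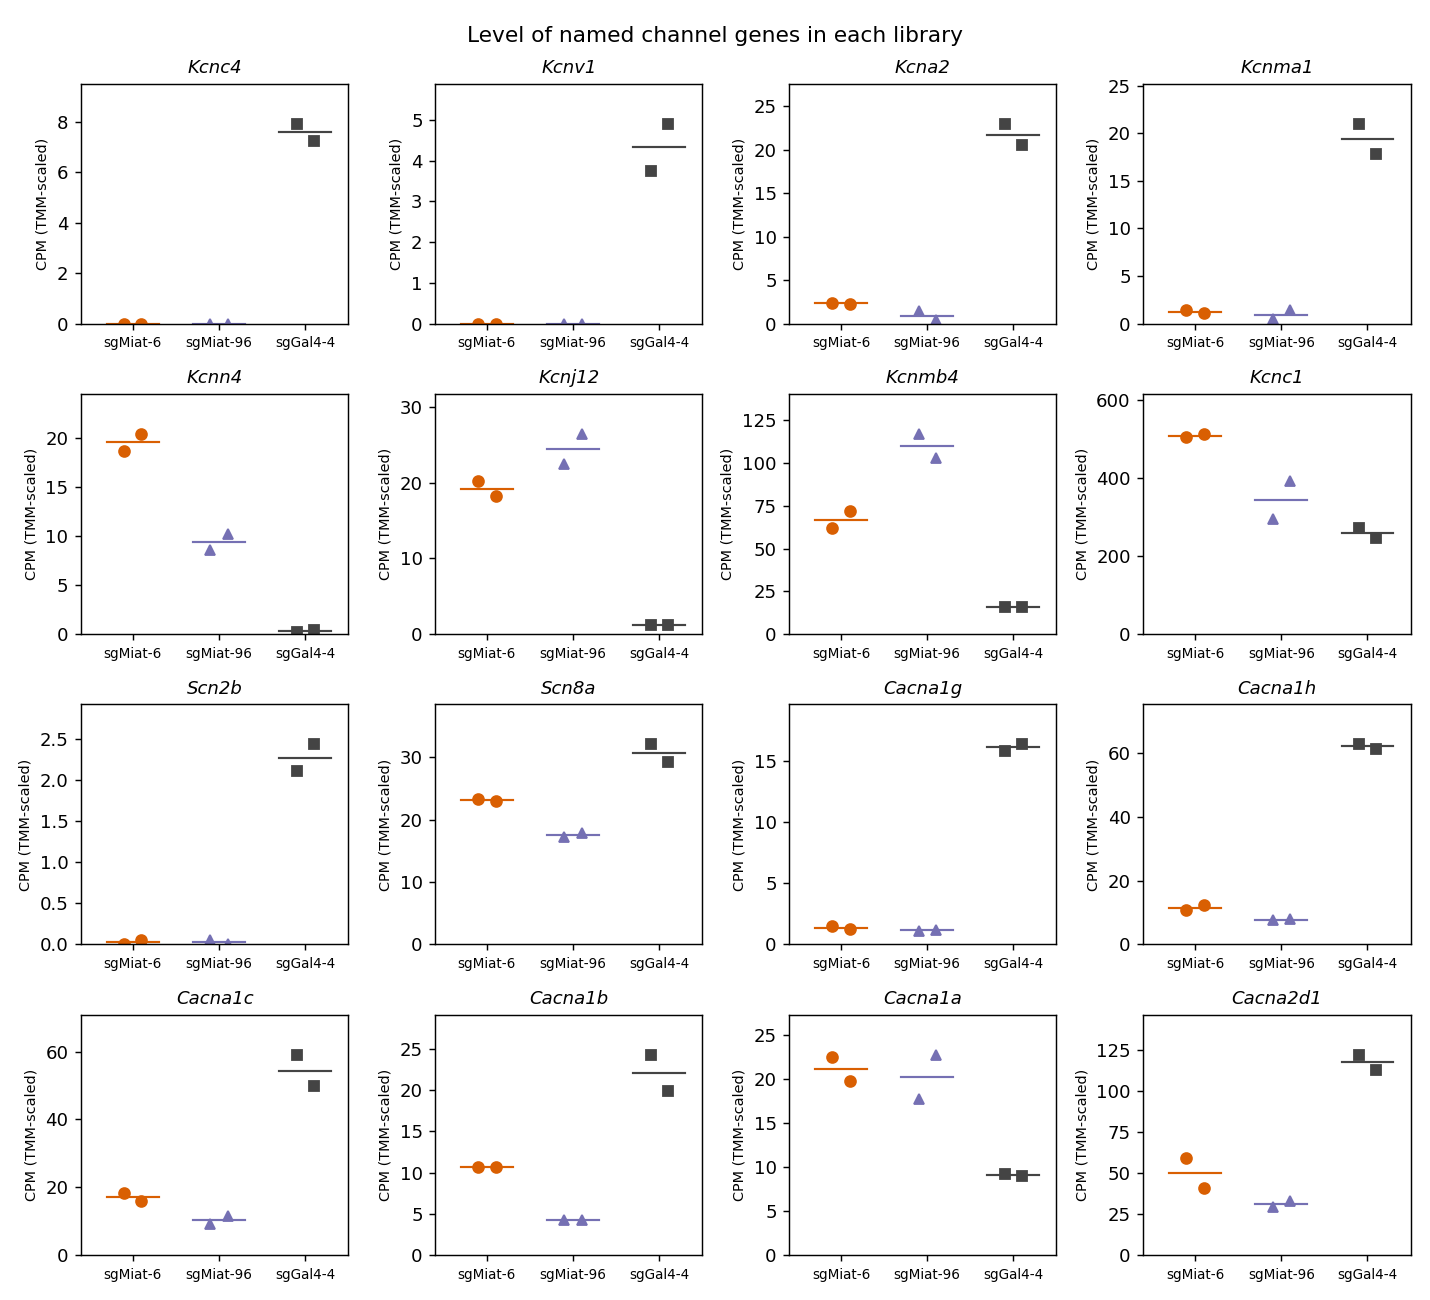
CPM (TMM-scaled, linear axes from 0) of 16 channel genes in each of the 6 libraries; each symbol is a library and each line the mean of 2. Kcnc4 and Kcnv1 sit at 0 in all 4 Miat libraries, Kcnn4, Kcnj12 and Kcnmb4 stand above sgGal4-4 in all 4, and Kcnc1 in sgMiat-96 replicate 1 (294 CPM) comes close to the higher sgGal4-4 library (272 CPM).

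Promoters are shown for the channel genes at the 2 ends of this range, to let the sequence upstream of genes that rose be read beside that of genes that fell. They were picked after the values were seen. Of 13 called genes with a log2 fold change of at least 2 in either direction and a single RefSeq promoter, 7 have a window that shares bases with a GENCODE exon and 1 has a start over 50 bases from that of the counted transcript, which left 5. Each line gives the 150 bases before the RefSeq start (GRCm38.p6), 5′ to 3′ on the gene's strand, with CG dinucleotides in capitals. The first 3 genes rose, at chr16:95257408-95257557 (plus strand), chr7:24370113-24370262 (plus) and chr12:75177333-75177482 (minus). The other 2 fell, at chr3:107101417-107101566 (plus) and chr3:89520014-89520163 (plus).
Kcnj15: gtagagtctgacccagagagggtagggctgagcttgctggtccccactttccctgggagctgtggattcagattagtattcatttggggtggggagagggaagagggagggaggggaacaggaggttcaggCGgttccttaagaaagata
Kcnn4: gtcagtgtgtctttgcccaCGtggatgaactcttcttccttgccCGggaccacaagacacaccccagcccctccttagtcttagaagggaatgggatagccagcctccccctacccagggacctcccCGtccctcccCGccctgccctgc
Kcnh5: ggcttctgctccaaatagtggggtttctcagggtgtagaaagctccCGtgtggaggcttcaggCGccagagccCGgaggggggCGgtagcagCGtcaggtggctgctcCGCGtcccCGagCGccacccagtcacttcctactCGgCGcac
Kcna2: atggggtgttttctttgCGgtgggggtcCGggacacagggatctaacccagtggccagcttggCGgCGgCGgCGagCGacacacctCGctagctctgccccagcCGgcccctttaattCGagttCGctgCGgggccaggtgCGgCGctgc
Kcnn3: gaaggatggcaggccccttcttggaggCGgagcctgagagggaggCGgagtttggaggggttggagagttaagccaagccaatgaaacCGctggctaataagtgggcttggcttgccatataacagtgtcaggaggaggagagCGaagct
The windows hold 1, 4, 11, 14 and 4 CG dinucleotides in the order printed, so the counts of rising and falling genes overlap. With only 5 windows, no difference between rising and falling genes can be read from them. Over the 250 bases before the start, promoters of channel genes that rose held a median of 6.0 CG dinucleotides (17 promoters of 12 genes) and those of genes that fell a median of 9.5 (34 promoters of 21 genes), against 6.0 over all 32851 RefSeq promoters. Promoters of all tested channel genes held a median of 9.0 (59 promoters of 38 genes). Some genes have several promoters in the RefSeq set and others none, and no difference between these medians was tested. CG reads the same on both strands.

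Sodium channel genes were sparse. Of 14 genes, 4 passed the filter. Scn2b, a beta subunit that links to alpha subunits by a disulfide bond (chr9:45117876-45130070), was nearly absent from the Miat libraries. It had 0 and 0.0510 CPM in sgMiat-6, 0.0562 and 0 CPM in sgMiat-96, and 2.11 and 2.43 CPM in sgGal4-4 libraries. These are 2 counts in the 4 Miat libraries and 89 in the sgGal4-4 libraries, a count ratio of 85.1 (95% interval 22.9 to 714) with sgGal4-4 higher (edgeR adjusted p = 1.51e-06).

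Only 2 of 10 pore-forming alpha subunits of sodium channels were tested. Scn8a, the main alpha subunit of mature nodes and axon initial segments (chr15:100869863-101045938), had 23.4 and 23.0 CPM in sgMiat-6, 17.2 and 17.9 CPM in sgMiat-96, and 32.1 and 29.3 CPM in sgGal4-4 libraries. Its groups did not overlap, and the log2 fold change was -0.61 ± 0.11 (edgeR adjusted p = 0.000332). Once the trend of counts with transcript length was taken out the value was 0.24, which did not pass, so its direction depends on that step. Scn2a1 had 3.92 and 3.67 CPM in sgMiat-6, 2.08 and 2.60 CPM in sgMiat-96 and 2.01 and 2.18 CPM in sgGal4-4, which did not pass over both guides and passed for sgMiat-6 alone (log2 fold change 0.86 ± 0.27). Per kb of transcript, Scn8a was at 2.04 CPM per kb in sgMiat-6, 1.55 in sgMiat-96 and 2.71 CPM per kb in sgGal4-4 cells, so that pore genes for sodium channels stayed far under the leading potassium channel gene Kcnc1.

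Most pore genes of calcium channels fell. Of 6 tested alpha1 genes, 5 fell and 1 rose, with a median log2 fold change of -2.38. Both tested T-type genes, whose channels open near rest, were among them. Cacna1h (chr17:25374285-25436334) had 10.7 and 12.3 CPM in sgMiat-6, 7.53 and 7.91 CPM in sgMiat-96, and 62.6 and 61.3 CPM in sgGal4-4 libraries (log2 fold change -2.72 ± 0.11, edgeR adjusted p = 4.31e-10). Cacna1g (chr11:94408391-94474400) had 1.49 and 1.28 CPM in sgMiat-6, 1.12 and 1.21 CPM in sgMiat-96, and 15.9 and 16.4 CPM in sgGal4-4 (log2 fold change -3.66 ± 0.18, edgeR adjusted p = 1.99e-09). For both, every Miat library lay far under both sgGal4-4 libraries, and replicates were close.

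The high-voltage-activated types divided. Cacna1c, the L-type channel of heart and neurons (chr6:118587240-119197384), had 18.3 and 15.8 CPM in sgMiat-6, 9.05 and 11.6 CPM in sgMiat-96, and 59.1 and 49.8 CPM in sgGal4-4 libraries (log2 fold change -2.04 ± 0.13, edgeR adjusted p = 2.65e-08). Cacna1b, the N-type channel of presynaptic terminals (chr2:24603860-24763200), had 10.7 and 10.7 CPM in sgMiat-6, 4.22 and 4.27 CPM in sgMiat-96, and 24.3 and 19.9 CPM in sgGal4-4 (log2 fold change -1.71 ± 0.14, edgeR adjusted p = 2.87e-07). The order sgMiat-96, sgMiat-6, sgGal4-4 held in both genes without overlap. Cacna1a, the P/Q-type channel of cerebellar neurons, was the one alpha1 gene that rose, with 22.4 and 19.7 CPM in sgMiat-6, 17.7 and 22.7 CPM in sgMiat-96, and 9.22 and 8.92 CPM in sgGal4-4 libraries (log2 fold change 1.18 ± 0.15, edgeR adjusted p = 1.61e-05). Cacna1s, the muscle L-type gene, had 2 counts in the Miat libraries and 31 in sgGal4-4.

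All 4 genes for the cytoplasmic Cacnb subunits, which carry alpha1 to the membrane, fell. Cacnb1 had 6.15 and 6.23 CPM in sgMiat-6, 8.54 and 8.95 CPM in sgMiat-96, and 18.7 and 15.8 CPM in sgGal4-4 libraries (log2 fold change -1.23 ± 0.14, edgeR adjusted p = 6.13e-06). Cacnb3, the most abundant beta gene per length, had 50.1 and 57.8 CPM in sgMiat-6, 67.5 and 69.7 CPM in sgMiat-96, and 86.2 and 89.8 CPM in sgGal4-4 (log2 fold change -0.53 ± 0.10, edgeR adjusted p = 0.000327). Cacnb2 and Cacnb4 fell by 0.80 ± 0.17 and by 1.12 ± 0.19 on the log2 scale. In each of the 4 genes the Miat and sgGal4-4 libraries did not overlap, but this held for 50 of the 60 tested channel genes. The share over all genes was not counted.

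Of the extracellular alpha2delta subunits, which raise channel number at the surface and bind gabapentin, 2 of 3 tested fell. Cacna2d1 (chr5:15934264-16374511) had 59.0 and 40.5 CPM in sgMiat-6, 29.3 and 32.6 CPM in sgMiat-96, and 122 and 113 CPM in sgGal4-4 libraries (log2 fold change -1.58 ± 0.13, edgeR adjusted p = 2.88e-07). Cacna2d2 fell by 1.53 ± 0.40 on the log2 scale, at under 3 CPM. Cacna2d4 did not pass.

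The Cacng genes expressed here encode TARPs, partners of AMPA-type glutamate receptors more than of calcium channels. Cacng7 (chr7:3332027-3368221) had 47.6 and 44.6 CPM in sgMiat-6, 62.9 and 69.3 CPM in sgMiat-96, and 76.3 and 83.1 CPM in sgGal4-4 libraries, a log2 fold change of -0.53 ± 0.10 (edgeR adjusted p = 0.000355). Cacng4 had 24.6 and 23.5 CPM in sgMiat-6, 11.5 and 17.8 CPM in sgMiat-96, and 29.6 and 25.8 CPM in sgGal4-4 (log2 fold change -0.56 ± 0.15, edgeR adjusted p = 0.00582). Cacng8, which neighbours Cacng7 (chr7:3394042-3416266), rose by a log2 fold change of 0.37 ± 0.13, but the value was -0.01 once that trend was taken out, and the call was also lost with total counts alone and without either sgGal4-4 library. The 3 TARP genes thus gave 2 lower and 1 higher.

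Each guide alone was also set against the same 2 sgGal4-4 libraries, which makes these comparisons dependent. With sgMiat-6, 17 channel genes rose and 30 fell of 60, where 53.0% of all tested genes were called (26.9% higher, 26.1% lower). With sgMiat-96, 15 rose and 31 fell, where 68.2% of all tested genes were called (34.0% higher, 34.2% lower). Calcium channel genes gave 1 higher and 12 lower of 16 with sgMiat-6, and 2 higher and 12 lower with sgMiat-96. Potassium channel genes gave 14 higher and 16 lower of 40 with sgMiat-6, and 12 higher and 17 lower with sgMiat-96. Cacng4 passed with sgMiat-96 (log2 fold change -0.92 ± 0.18) and missed with sgMiat-6 (-0.20 ± 0.18). Kcnd3 passed with sgMiat-6 (0.82 ± 0.12) and missed with sgMiat-96 (0.15 ± 0.12).

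The guides themselves were compared directly, sgMiat-96 against sgMiat-6. Of the 60 channel genes, 7 were higher and 10 lower in sgMiat-96, and 36.7% of all tested genes were called in that comparison (17.9% higher, 18.8% lower). Pore subunits gave 0 higher and 8 lower of 36, and auxiliary subunits 6 higher and 2 lower of 18. With the trend of counts with transcript length taken out, the pore calls of Cacna1c, Cacna1h, Kcnc1 and Kcna2 were lost, and Scn8a turned round. The auxiliary calls of Cacng7 and Cacna2d1 were lost too, so this split depends on that step. Among the pores, Cacna1b and Kcna2 differed most, with log2 fold changes of -1.33 ± 0.18 (edgeR adjusted p = 0.000638) and -1.31 ± 0.37 (edgeR adjusted p = 0.015). Kcnn4 was also lower in sgMiat-96, at -1.06 ± 0.18 (edgeR adjusted p = 0.00149), although both Miat groups stood above sgGal4-4. Kcnmb4 was higher in sgMiat-96 by 0.71 ± 0.12 (edgeR adjusted p = 0.00139). Without the trend of counts with transcript length, the split of channel genes became 10 higher and 4 lower, and without sgMiat-96 replicate 1 it was 4 and 4. Without sgMiat-6 replicate 1, 6 were lower, and without either sgGal4-4 library 4 were higher. The Kcna2 call was lost without that trend, at -0.68, without sgMiat-96 replicate 2, at -0.73, and without sgMiat-6 replicate 1, at -1.29, whereas those of Cacna1b, Kcnn4 and Kcnmb4 held without each of the 6 libraries in turn. Tested channel genes have longer transcripts than tested genes at large, with medians of 3878 and 2844 bases.

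**Figure D4:**
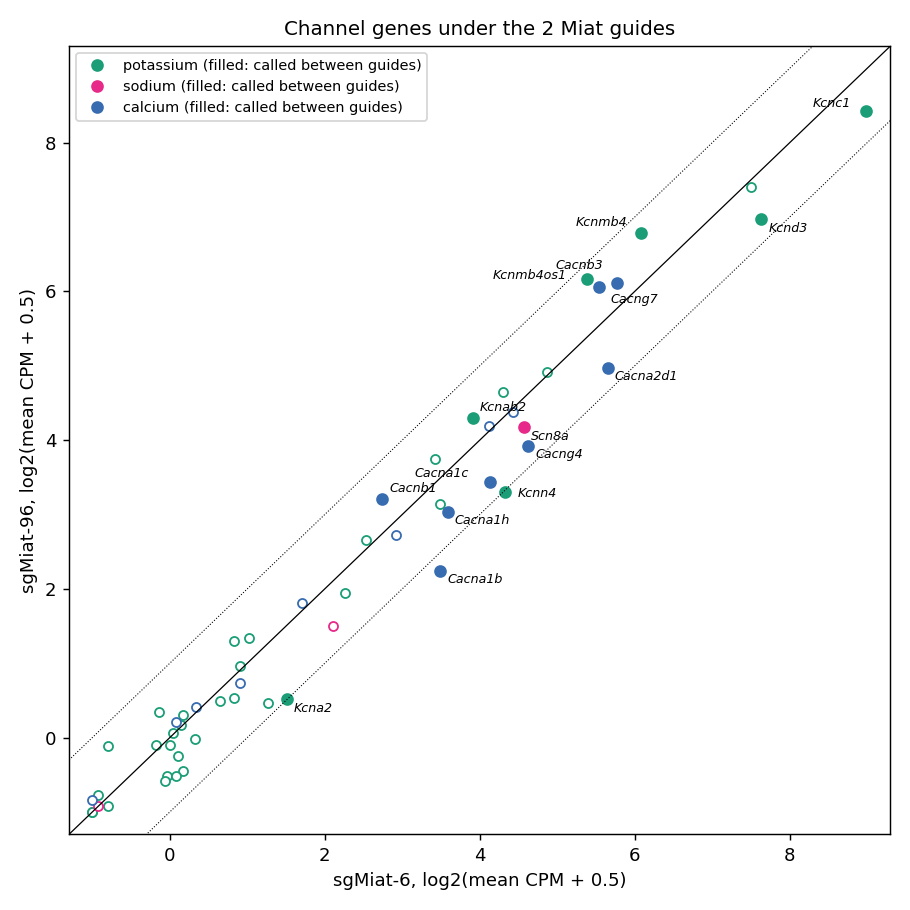
Mean level of 56 tested channel genes in sgMiat-96 (vertical axis) against sgMiat-6 (horizontal axis), as log2 of mean CPM + 0.5; filled symbols were called between the guides, the solid line marks equal levels and the dotted lines a 2-fold difference. Most genes lie close to the solid line, Kcnmb4 lies above it, and Cacna1b and Kcnn4 lie at or below the lower dotted line.

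A list of 43 partner and related genes was read from the same fit, of which 27 were tested over both guides, with 6 higher and 12 lower. That is 66.7% called, near the 66.5% over all tested genes, so the count does not set the list apart. Ank2, an ankyrin that anchors channels and pumps to the membrane skeleton, fell to 13.7 ± 0.494 CPM in sgMiat-6 and 7.35 ± 0.298 CPM in sgMiat-96, against 252 ± 3.8 CPM in sgGal4-4 (SD, n = 2 each; log2 fold change -4.65 ± 0.10, edgeR adjusted p = 1.17e-12). Gem, a small GTPase that blocks calcium channels through their beta subunit, was at 0 in 3 Miat libraries and at 0.115 CPM in sgMiat-96 replicate 2, against 8.65 and 7.04 CPM in sgGal4-4 (edgeR adjusted p = 2.93e-08). Its call runs the same way as those of the Cacnb genes. Of the 6 sodium pump genes, which maintain the gradients the channels run on, 4 fell and 1 rose. Atp1b2 had 58.4, 57.9, 73.0 and 75.9 CPM in the Miat libraries, against 217 and 215 CPM in sgGal4-4 (log2 fold change -1.71 ± 0.08, edgeR adjusted p = 2.3e-09).

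Rest, the repressor that silences neuronal channel genes outside neurons, stood in that list by itself. It had 31.5 and 14.8 CPM in sgMiat-6, 4.22 and 7.27 CPM in sgMiat-96, and 46.1 and 45.8 CPM in sgGal4-4 libraries, a log2 fold change of -1.99 ± 0.23 (edgeR adjusted p = 7.69e-06). The 3 groups did not overlap, with sgMiat-96 lowest. Of the pacemaker and leak group, Hcn2 rose to 26.4, 33.6, 31.1 and 34.4 CPM in the Miat libraries against 15.4 and 11.8 CPM in sgGal4-4. Nalcn, the sodium leak channel, was at 0 counts in all 4 Miat libraries, against 3.50 and 2.23 CPM in sgGal4-4. Rest, Hcn2 and Nalcn were singled out after their values were seen.

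The 75 untested channel genes hold several that define neuronal firing elsewhere. Those at 0 in every library include Kcna3, Kcna6, Kcnb2, Kcnk1, Kcnk9, Kcnj3, Scn9a and Scn10a. A count of 0 allows up to between 0.149 and 0.173 CPM per library. Kcnh8 had 0.446, 0.408, 0.675 and 0.231 CPM in the Miat libraries and was at 0 counts in both sgGal4-4 libraries, at least 5.75-fold higher. Kcnh7 was at 0 in all 4 Miat libraries, against 0.464 and 0.405 CPM in sgGal4-4, at least 10.8-fold lower. Both were picked after their values were seen and neither was tested. Over all GENCODE exons, 25 of the 60 tested genes share bases with another gene, 22 of them with one on the opposite strand. A part of their counts could come from that neighbour if the counted transcript holds the shared bases, which was not checked.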

How the data were processed

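Messenger RNA libraries were made from 1 ug of total RNA, per the labels' protocols. The submitters' processing notes name STAR and the mouse build GRCm38 (mm10). The counter, annotation release, tool versions and strand setting: not given in the sources used here. The authors deposited, for each library, whole-number counts, FPKM and TPM per RefSeq transcript, per the file headers. The deposited TPM values were not used. The deposited FPKM values served to set a count to 0 where FPKM was 0, since rows with FPKM 0 were listed at a count of 1 in sgMiat-96 replicate 2 (11223 rows), and, with the count, to give the transcript length.

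For each of 24063 symbols the row with the highest total count was kept. The 3 groups were fitted together with edgeR 4.0.16 (R 4.3.3) by its quasi-likelihood F test after filterByExpr and TMM scaling, on 13219 genes, with Benjamini-Hochberg adjustment over all of them and 3 residual degrees of freedom. The standard error is the absolute log2 fold change over the square root of F. Levels are TMM-scaled CPM, compared between genes only per kb of transcript. Bounds for a group at 0 use 3 counts over the group, and ratios with few counts have 95% exact binomial intervals; both cover counting error only. The script was tested on simulated data. Alternatives used DESeq2 1.42.0, other scalings, filters, zeros and transcript choices, a length trend removed by R's loess function, a replicate block and each library left out.

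Gene coordinates are from RefSeq on GRCm38, matched by accession. Strands, transcript starts and exon overlaps are from GENCODE. Promoters are from RefSeq (GRCm38.p6), whose promoter set holds 98 of the 135 genes. Genes named with values in every library were those with the largest called changes at a mean of at least 2 CPM (10 potassium, up to 4 sodium and 6 calcium), the 4 largest differences between the guides, the 8 with the highest length-scaled levels in sgGal4-4, those at 0 in 1 group and at least 2 CPM in another, and the 4 related genes with the smallest adjusted p. Others were named by family, or after their values were seen. The channel genes and all lists were chosen with earlier results of these data known. Protein sequences were not analysed here, and some genes that the rules would name are not reported here.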

Additional observations from a re-analysis of the deposited data

Results flagged for a closer look

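The response of the channel genes below differed between the Miat guides, by the direct test of sgMiat-96 against sgMiat-6 (edgeR adjusted p under 0.05). The values are log2 fold changes, and 36.7% of all tested genes were called in the same comparison. Among pore genes, lower in sgMiat-96 were Cacna1b (-1.33), Kcna2 (-1.31), Kcnn4 (-1.06), Cacna1c (-0.73), Kcnd3 (-0.67), Cacna1h (-0.57), Kcnc1 (-0.57) and Scn8a (-0.40). Lower among the auxiliary genes were Cacng4 (-0.72) and Cacna2d1 (-0.69). Higher in sgMiat-96 were Kcnmb4 (0.71), Cacng7 (0.52), Cacnb1 (0.50), Kcnab2 (0.40) and Cacnb3 (0.35), and the noncoding Kcnmb4os1 (0.80).

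Leaving out each of the 6 libraries in turn kept the calls of Cacna1b (-1.35 to -1.32), Kcnn4 (-1.20 to -0.94), Kcnd3 (-0.82 to -0.54), Kcnmb4 (0.61 to 0.80), Kcnmb4os1 (0.67 to 0.92) and Cacng7 (0.45 to 0.59). Cacna1c, Cacna1h and Kcnc1 were lost without sgMiat-96 replicate 1, at -0.56, -0.54 and -0.38. Cacna2d1 was lost without that library (-0.61) and without sgMiat-6 replicate 1 (-0.39), as was Cacng4 (-0.44 and -0.69). Cacnb1 and Kcnab2 were lost in all 6 settings, and Cacnb3 and Scn8a in 5. With the trend of counts with transcript length taken out, the calls of Cacng7 (0.04), Cacna1c (-0.05), Cacna1h (-0.08), Kcnc1 (-0.10), Cacna2d1 (-0.21) and Kcna2 (-0.68) were lost and Scn8a turned to 0.22, with adjusted p between 0.178 and 0.874 in edgeR. Kcna2 was also lost without sgMiat-6 replicate 1 (-1.29) and without sgMiat-96 replicate 2 (-0.73). DESeq2 lost Cacnb1 (0.51), Kcnab2 (0.41) and Scn8a (-0.39), and total counts alone lost Cacnb1 (0.35), Cacnb3 (0.20) and Kcnab2 (0.25). The calls of Cacna1b, Kcnn4, Kcnd3, Kcnmb4 and Kcnmb4os1 held under every alternative run. The cause of these differences was not tested.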

How the results depend on the processing

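Counts of called channel genes stayed within 1.5 times under RLE scaling, counts as listed, the longest transcript and without Kcnmb4os1; elsewhere the cause was not tested, beyond the fewer genes tested under the strict filter. For both guides against sgGal4-4, the strict filter gave 11 higher (8 potassium); no filter gave 2 sodium genes higher; the length trend removed gave 2 sodium genes higher and 1 lower and 1 calcium gene higher; total counts gave 1 calcium gene higher. For sgMiat-6 the strict filter gave 11 higher (8 potassium), the length trend removed 1 sodium gene lower and DESeq2 1 sodium gene higher. For sgMiat-96 the strict filter gave 7 potassium genes higher, no filter 2 sodium genes higher, the length trend removed 3 sodium genes higher, 1 sodium gene lower and 1 calcium gene higher, and total counts and DESeq2 each 1 calcium gene higher. Between the guides, the length trend removed gave 4 lower (2 potassium, 0 sodium, 2 calcium) and 6 potassium genes higher; total counts gave 4 higher (1 calcium) and 2 sodium genes lower, and shifted the median over all genes to -0.14; DESeq2 gave 0 sodium genes lower.

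Leaving out each library gave, for both guides, 13 to 19 higher and 29 to 35 lower, with 1 to 3 calcium genes higher. For sgMiat-6 it gave 1 to 2 sodium genes higher, 1 to 2 sodium genes lower and 1 to 2 calcium genes higher. For sgMiat-96 it gave 1 to 3 calcium genes higher. Between the guides it gave 4 to 6 higher, 4 to 11 lower, 0 to 1 sodium genes lower, 1 to 2 calcium genes higher and 1 to 5 lower.

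Same-numbered libraries did not deviate together: the correlation of replicate 1 minus replicate 2 over 10362 genes was 0.06 for sgMiat-6 with sgGal4-4, -0.188 for sgMiat-96 with sgGal4-4 and -0.366 for sgMiat-96 with sgMiat-6. The replicate block gave 17 higher and 34 lower for both guides, and between the guides 4 higher, 0 sodium genes lower and 1 calcium gene higher.

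Log2 fold changes that turned round with the length trend removed were Scn8a (0.24, and 0.22 between the guides), Kcnq5 (0.12) and Cacng8 (-0.01). Cacna2d4 (0.03, not called) was -0.09 with total counts and ran between -0.36 and 0.56 as each library was left out. Other uncalled genes that changed sign there had ranges of -0.52 to 0.19 for Kcnk4 (also 0.01 without sgMiat-96 replicate 1), -0.30 to 0.02 for Kcnab3 and -0.73 to 0.10 for Kcns2. DESeq2 lost the calls of Kcnh6, Kcnd1, Kcng2, Kcng4, Kcnu1 and Kcnj14. Total counts moved the median of all genes by -0.13 for both guides.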
